A study of Mus musculus with 12 samples.

Results

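The 10 genes described here, Atp8b4, Susd1, F13a1, Map4k4, Ptpre, Rbms1, Rin3, Igf1r, Thbs1 and Il17ra, were chosen by their high counts or dense groups of TET2 binding sites among 21887 protein-coding mouse genes. They held 57 of 6895 TET2 sites listed for acute myeloid leukemia (AML) cells and 96 of 18822 sites listed for immortalized myeloid cells. A site belonged to a gene when its midpoint lay inside the gene, or within 100 kb of the gene with that gene's start or end the nearest among protein-coding genes. The counts chose the genes, so counts, spacing and sharing are given as descriptions with no test. By this rule Thbs1 went against the label of a site-rich gene: it had 0 AML sites and 2 myeloid sites, and its dense group lay beyond the limit.

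The sites came from chromatin immunoprecipitation sequencing (ChIP-seq), which recovers the DNA that a protein occupies by means of an antibody. The immortalized cells all carried the MigR1-AML1-ETO transgene, a retroviral construct, and their genotype was Tet2fl/fl; AML1-ETO for the wild-type libraries and Tet2-/-; AML1-ETO for the knockout libraries. The AML cells were Npm1+/cA; Fl3+/ITD (spelled as in the labels), with Tet2-/- added in the knockout, and had no transgene. Each cell type gave 2 wild-type and 2 knockout libraries with an antibody to the N-terminal part of TET2, plus 1 input and 1 IgG library, 12 in all. Both cultures grew in SCF, IL-3 and IL-6. The labels do not say how many animals or clones stand behind a culture, and no expression values were among the files, so the cell identities were not checked. Each cell type has 1 deposited list of positions with no value per site or library, so a site has no replicate error and its depth is unknown.

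TET2 is a dioxygenase that oxidizes 5-methylcytosine, a step towards loss of DNA methylation, and it is often mutated in blood cancers. It has no DNA-binding zinc finger of its own and is known to reach chromatin through partner proteins, often at enhancers. Enhancers can lie in introns or far from a gene, and a group of them close together often marks a gene with a role in cell identity. Assignment by distance does not show which gene an enhancer acts on.

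Of the 10 genes, 9 had an AML site and all 10 had a myeloid site. The background over all protein-coding genes was 19.8% with an AML site, 42.0% with a myeloid site and 17.7% with both. Atp8b4, Susd1 and Igf1r had 8 AML sites and 11 myeloid sites each. F13a1 and Map4k4 had 7 and 10, Rbms1 and Rin3 had 5 and 12, Ptpre had 4 and 13, and Il17ra had 5 and 4. At least 5 sites in both lists were found at 0.393% of genes, and 7 of the members met that count. An exact Poisson 95% interval, which covers counting error alone, ran from 3.45 to 15.8 for a count of 8 and from 1.62 to 11.7 for a count of 5, so the members' AML counts from 4 to 8 overlap in their intervals. Genes that were not members had as many or more: Runx1, a transcription factor of blood stem cells, had 9 and 15, Sgms1 had 10 and 12, Wwox had 9 and 16, and Pde4d had 8 and 18. The members had a median length of 137 kb, against 17.2 kb over all protein-coding genes, and a long gene has more room for sites.

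**Figure D1:**
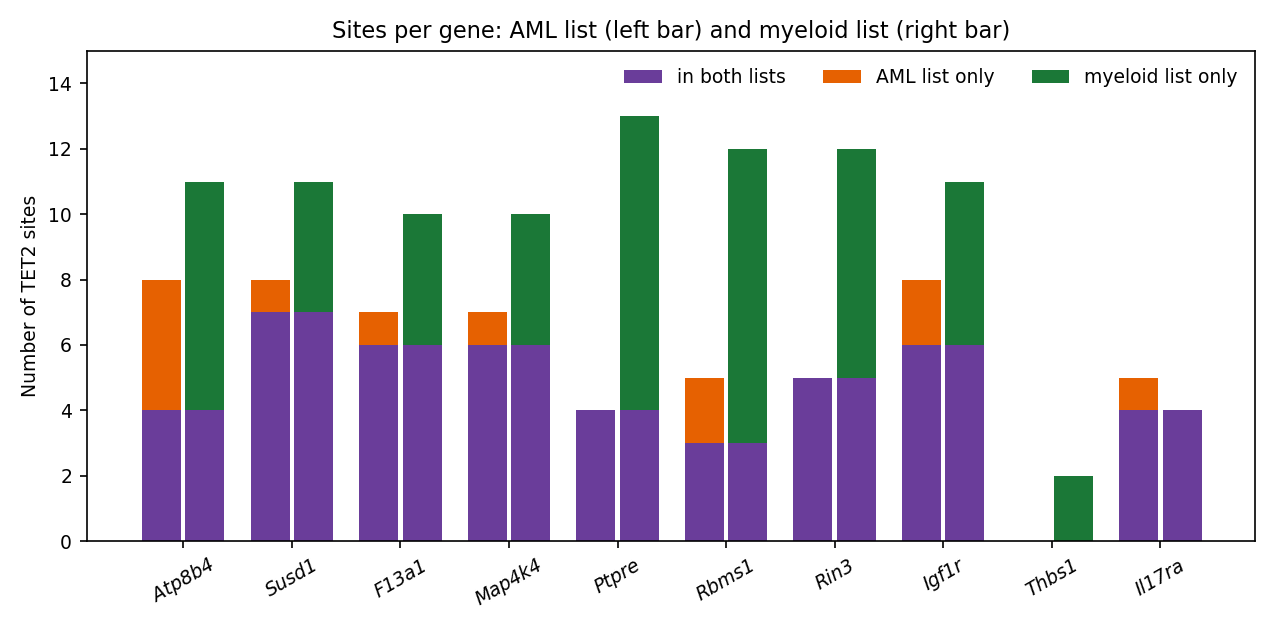
Number of TET2 sites per gene (y axis) for the 10 genes (x axis), AML list in the left bar and myeloid list in the right bar, divided into sites found in both lists and in 1 list alone. All AML sites of Ptpre (4) and Rin3 (5) were in both lists, and Thbs1 had 2 myeloid sites alone.

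Most AML sites of these genes were also myeloid sites. Of the 57 AML sites, 45 overlapped a myeloid site by at least 1 bp (78.9%, exact 95% interval 66.1 to 88.6), where 71.4% of all AML sites did. The same 45 were 46.9% of the members' 96 myeloid sites (36.6 to 57.3), where the share over the whole myeloid list was 26.2%. Over the 95 genes with at least 5 AML sites, most members among them, 392 of 569 AML sites were shared (68.9%). At 15 of those genes all AML sites were shared. Members were chosen partly on counts in both lists, so their shares are not independent of the choice. Overlapping pairs lay almost on top of each other: their midpoints differed by a median of 22 bp (quartiles 8 and 38 bp, at most 275 bp), against 25 bp over all 4930 pairs. Outside the pairs, 12 sites were in the AML list alone and 51 in the myeloid list alone, a ratio of 4.25, against 7.05 over both whole lists. Of the 12 AML-only sites, 4 lay at Atp8b4, and Igf1r and Rbms1 had 2 each.

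**Figure D2:**
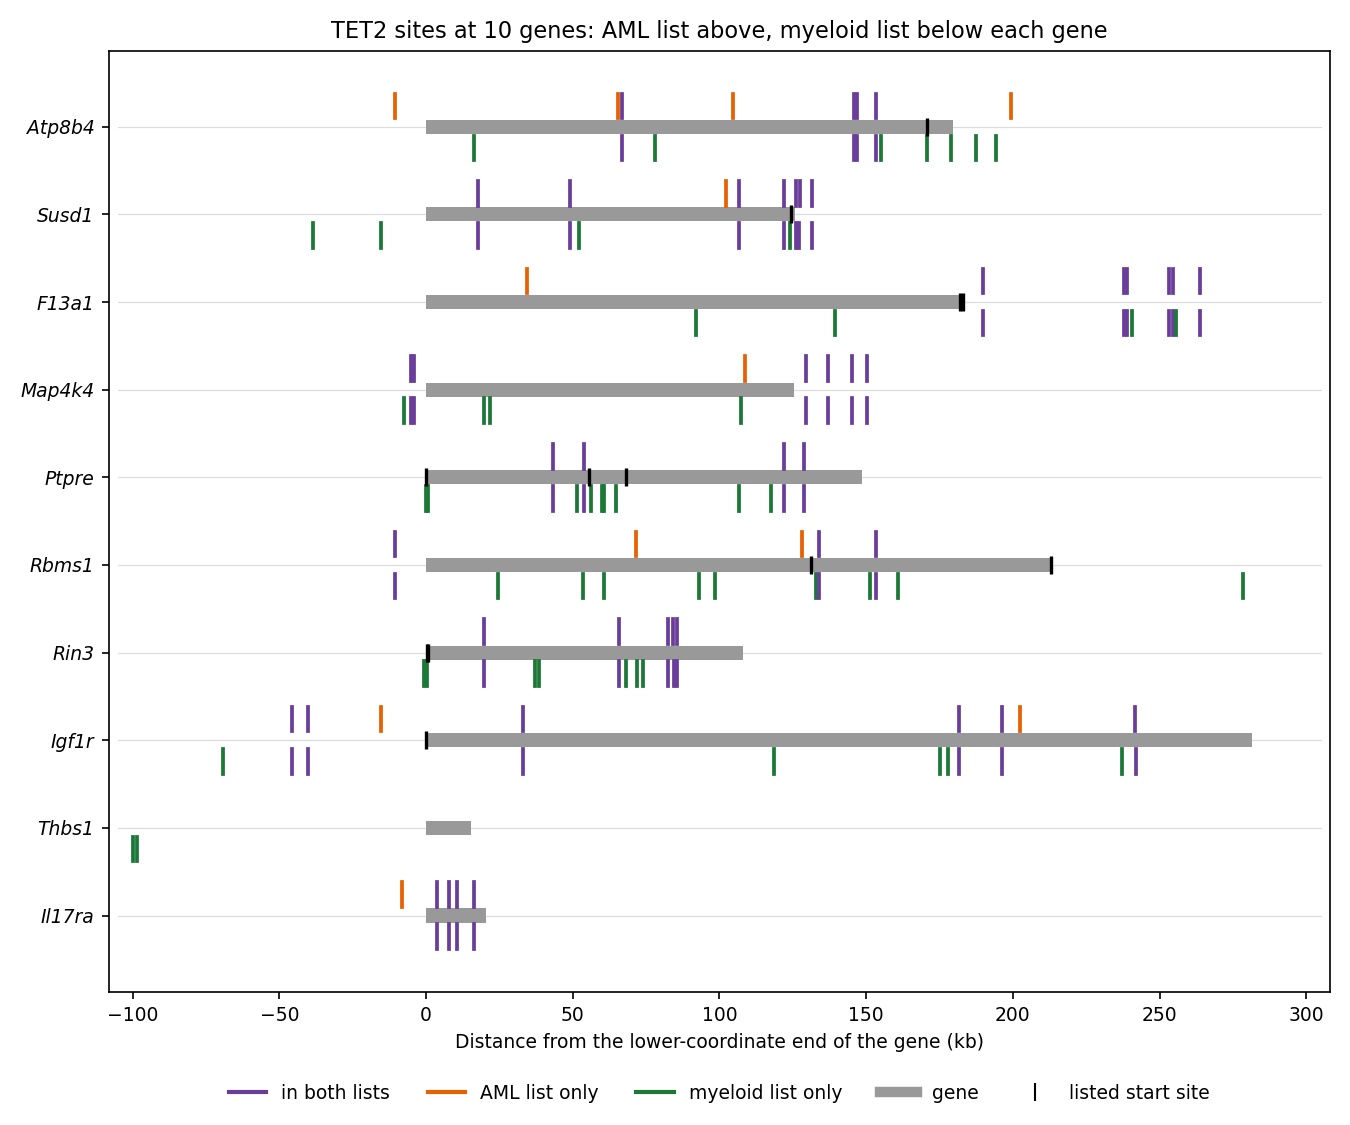
Position of each TET2 site (vertical mark) relative to the lower-coordinate end of its gene, in kb, with AML sites above and myeloid sites below a grey bar that spans the gene; black ticks are start sites listed by RefSeq. At F13a1 most marks lie outside the gene, at Ptpre and Rin3 nearly all lie inside it, and marks of the 2 lists stand over each other where sites are shared.

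Most sites of these genes lay away from gene ends. Within 1 kb of a gene end were 1 of the 57 AML sites (1.75%, 0.0444 to 9.39) and 6 of the 96 myeloid sites (6.25%, 2.33 to 13.1). Over the whole lists the shares were 8.82% and 22.6%. Inside a protein-coding gene lay 35 of 57 AML sites (61.4%) and 65 of 96 myeloid sites (67.7%), against 49.8% and 53.4% over the lists. The rule keeps sites farther than 100 kb from any protein-coding gene out of the members' sites. The whole lists include them, so these shares cover unlike sets. Gene length was not matched either: the members had a median length of 137 kb, against 17.2 kb over all protein-coding genes. Of the 6 myeloid sites at a gene end, 5 were myeloid-only: 2 at Ptpre, 2 at Rin3 and 1 at Atp8b4. Most gene-end sites of the whole myeloid list were also myeloid-only, 3748 of 4252. The shared gene-end site of the members lay at Susd1, 0.310 kb beyond the gene's upper end in the myeloid list and 0.327 kb beyond it in the AML list.

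RefSeq promoter windows, from 250 bases before a start site to 50 after it, were listed on GRCm38.p6 (the coordinates of mm10) for 7 of the 10 members, with 12 windows in all. Map4k4, Thbs1 and Il17ra had no entry. A myeloid site overlapped 5 of the 12 windows, at 4 genes, and an AML site overlapped 0. Over all 32851 listed windows 14.5% overlapped a myeloid site and 1.63% an AML site, so the difference between the lists at member promoters goes the same way as over the whole table. The windows that a myeloid-only site covered over all 300 bases are printed here for Atp8b4, Susd1, Ptpre and Rin3, followed by that of Igf1r, which no site overlapped. Windows were searched on both strands for 5 short motifs of blood transcription factors, and matches are in capitals. For RUNX factors the letters were TGTGGT. For C/EBP factors, which drive myeloid genes, they were TTGCNNAA. The PU.1 type of ETS factors was searched as GAGGAA. For AP-1, the FOS and JUN dimer, the letters were TGANTCA. For GATA factors of the erythroid and mast cell lineages they were AGATAA. Matches of different motifs may share bases.
Atp8b4, chr2:126491504-126491803, minus strand: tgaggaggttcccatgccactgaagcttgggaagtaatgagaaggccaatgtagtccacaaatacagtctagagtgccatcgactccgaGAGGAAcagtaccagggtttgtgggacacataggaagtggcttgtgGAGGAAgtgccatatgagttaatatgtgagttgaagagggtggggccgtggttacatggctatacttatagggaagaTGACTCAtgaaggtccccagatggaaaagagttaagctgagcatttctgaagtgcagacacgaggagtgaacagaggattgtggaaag
Susd1, chr4:59438584-59438883, minus strand: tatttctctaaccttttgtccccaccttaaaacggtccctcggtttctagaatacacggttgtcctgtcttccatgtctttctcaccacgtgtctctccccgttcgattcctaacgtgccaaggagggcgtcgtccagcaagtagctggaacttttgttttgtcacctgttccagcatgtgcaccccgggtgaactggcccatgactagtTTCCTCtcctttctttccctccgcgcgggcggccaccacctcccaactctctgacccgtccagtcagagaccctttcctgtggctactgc
Ptpre, chr7:135537574-135537873, plus strand: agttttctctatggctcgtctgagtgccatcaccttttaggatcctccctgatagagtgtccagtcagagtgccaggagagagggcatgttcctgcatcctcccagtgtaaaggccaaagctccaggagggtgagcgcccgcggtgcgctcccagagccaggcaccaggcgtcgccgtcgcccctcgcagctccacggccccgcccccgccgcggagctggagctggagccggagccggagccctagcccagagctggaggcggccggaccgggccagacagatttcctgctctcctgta
Rin3, chr12:102282824-102283123, plus strand: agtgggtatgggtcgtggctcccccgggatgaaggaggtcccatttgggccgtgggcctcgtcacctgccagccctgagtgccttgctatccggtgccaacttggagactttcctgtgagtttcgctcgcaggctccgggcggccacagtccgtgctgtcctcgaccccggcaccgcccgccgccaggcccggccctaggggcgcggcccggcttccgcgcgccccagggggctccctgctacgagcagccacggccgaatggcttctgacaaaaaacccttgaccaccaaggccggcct
Igf1r, chr7:67952007-67952306, plus strand: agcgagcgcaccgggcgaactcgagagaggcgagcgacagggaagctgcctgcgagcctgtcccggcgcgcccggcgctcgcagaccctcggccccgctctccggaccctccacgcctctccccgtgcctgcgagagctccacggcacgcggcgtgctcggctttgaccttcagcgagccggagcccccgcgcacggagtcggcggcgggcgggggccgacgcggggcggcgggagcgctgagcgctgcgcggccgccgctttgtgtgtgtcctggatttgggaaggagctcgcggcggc

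These promoters differ in their letters. The Atp8b4 window held 4 CpG dinucleotides, 2 matches to GAGGAA and 1 to the AP-1 motif. The Susd1 window held 15 CpG and 1 GAGGAA match. The Ptpre and Rin3 windows held 20 and 26 CpG and none of the 5 motifs, and a further Rin3 window, of which a myeloid site covered 193 bases, held 1 C/EBP match. The Igf1r window held 48 CpG and no motif match, and its start site lay 15.2 kb from the nearest AML midpoint and 33.0 kb from the nearest myeloid midpoint. The median number of CpG was 7 over all listed windows, 23 over windows with a myeloid site and 12 over windows with an AML site. GAGGAA was present in 28.3% of all windows, 28.5% of those with a myeloid site and 38.4% of those with an AML site. The AP-1 motif was present in 7.81%, 5.16% and 9.93%, the C/EBP motif in 10.8%, 9.64% and 16.9%, the RUNX core in 16.8%, 14.5% and 24.0%, and the GATA motif in 11.2%, 6.08% and 9.93%. A match describes letters and is not a binding site.

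Il17ra encodes the common chain of the IL-17 receptors, which signal inflammation to many cell types. It lies on chromosome 6 from 120463181 to 120483731, and with 20.6 kb it is a short gene among the 10. Its 4 myeloid sites all lay inside the gene and were all shared. They sat 3.71, 7.74, 10.5 and 16.3 kb from the lower-coordinate end, within 13.6 kb. That is 19.5 sites per 100 kb of gene in each list, against 10.2 myeloid and 4.63 AML sites per 100 kb inside Rin3, the next densest member. The fifth AML site, AML-only, lay 8.22 kb below the gene and 10.4 kb from Kdm5a. Il17ra was the 1 member with more AML than myeloid sites. Among 11 other genes of IL-17 receptors, ligands and their adaptor, none had AML sites (0 of 11), and myeloid sites were found at 4 (Il17d 3, Traf3ip2 2, Il17rd 1 and Il17a 1).

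Igf1r encodes the receptor tyrosine kinase of insulin-like growth factor 1. It is the longest of the 10 at 281 kb (chromosome 7, 67952257 to 68233668), and its sites were spread out. The median distance between neighbours was 25.0 kb in the AML list and 19.1 kb in the myeloid list, the latter the widest of the members with more than 1 gap. A shared pair lay upstream, 45.8 and 40.3 kb before the start site in the AML list. The other 4 shared AML sites lay inside the gene, 33.0, 182, 196 and 242 kb after the start. An AML-only site stood 15.2 kb before the start and a second 203 kb after it. The stretch from 175 to 242 kb held 6 of the 11 myeloid sites, and the widest of them, at 242 kb, spanned 1248 bp. Overlapping sites within a list were joined, and without this Igf1r had 12 myeloid sites. This width may therefore be that of a joined site. Among 14 other genes of insulin and insulin-like growth factor signalling, AML sites were found at 5 and myeloid sites at 7. Igfbp7, an extracellular binding protein of this family, had 3 and 3, Irs2, an adaptor of both receptors, 2 and 4, Igf1 2 and 2, and Insr, the insulin receptor, 0 and 5.

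Ptpre encodes receptor-type protein tyrosine phosphatase epsilon. It had the most myeloid sites of the 10, 13 against 4 AML sites, and all 4 AML sites were shared (chromosome 7, 135537824 to 135686294). The AML sites were inside the gene at 43.3, 53.8, 122 and 129 kb after its first listed start site. The myeloid list added 9 sites: 2 at the start, 0.049 kb before it and 0.711 kb after it, 5 between 51.3 and 64.6 kb, and 2 at 107 and 117 kb. From 42.7 to 65.0 kb the myeloid list thus held a run of 7 sites where the AML list held 2. Further start sites of Ptpre were listed at 55.7 and 68.0 kb. The former falls within that run, and a myeloid-only site lay 0.581 kb after it. The first site of that run was the widest of the gene, at 1250 bp in the myeloid list and 1112 bp in the AML list. Without joining of overlapping sites Ptpre had 5 AML and 14 myeloid sites. These widths may therefore be those of joined sites. Among 12 other receptor-type phosphatase genes, AML sites were found at 5 and myeloid sites at 8. Ptprc, which encodes the leukocyte antigen CD45, had 3 and 5, Ptprj 1 and 5, and Ptpra, the closest relative, 0 and 2.

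Map4k4 encodes a STE20-type kinase of the stress kinase pathway. Its shared sites lay outside the gene, on both sides (chromosome 1, 39900902 to 40026310). On the lower-coordinate side 2 shared AML sites stood 5.19 and 4.18 kb from the gene, 1.01 kb apart, the shortest distance between AML neighbours in these genes. On the other side 4 sites, all shared, followed at 4.22, 11.7, 19.6 and 25.0 kb, a row of 21.6 kb with no site of 1 list alone. The next protein-coding gene in that direction, Il1r2, the decoy receptor of interleukin 1, begins 58.4 kb from Map4k4, and the last site of the row lay 33.4 kb from it. Inside the gene were 1 AML site and 3 myeloid sites, and none of these was shared. The inside sites at 107 and 109 kb came close without overlap: the myeloid one ended at 40008535 and the AML one began at 40009202. Of 6 related kinase genes, 0 had an AML site, and Map4k3 had 2 myeloid sites, Map4k5 1 and Tnik 1.

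Rin3 encodes an exchange factor that activates RAB5 GTPases of early endosomes. All 5 AML sites lay inside the gene and were shared (chromosome 12, 102282840 to 102390854), 19.7, 65.8, 82.5, 84.3 and 85.5 kb from its lower-coordinate end, the side of both listed start sites. The last 3 followed each other at distances of 1.88 and 1.13 kb. Around them the myeloid list held 7 sites within 20.5 kb, 4 of which matched the 4 AML sites there. Its median distance between neighbours of 2.49 kb was the shortest of the members with more than 1 gap. The myeloid list also held 2 sites at the start (0.523 kb before and 0.322 kb after the lower end) and 2 at 37.3 and 38.4 kb, all myeloid-only. Among 10 genes of RIN proteins, RAB5-type GTPases and their activators or partners, AML sites were found at 6 and myeloid sites at 7: Rab31 with 2 and 8, Rin2 with 2 and 4 and Rabgef1 with 1 and 3.

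Atp8b4 encodes a P4-ATPase, a family of pumps that move phospholipids between the leaflets of a membrane. It had the lowest share of shared AML sites among the 9 members with AML sites: 4 of 8 (chromosome 2, 126320973 to 126500669). The other AML sites were AML-only, at 10.7 kb below the gene, 65.4 and 105 kb inside it and 19.8 kb above it. The AML-only site at 65.4 kb had a shared neighbour 1.49 kb away. Around 145 to 155 kb, 3 shared sites and 1 myeloid-only site formed a group of 10.1 kb. Towards and beyond the upper end, upstream of this minus-strand gene, 4 myeloid-only sites followed: at the internal listed start site (0.087 kb before it), 0.756 kb inside the end, and 7.83 and 14.5 kb outside. Among 15 related pump and subunit genes, each list had sites at 9. Atp10a had 1 and 7, Atp11b 0 and 6, Atp11a 1 and 5, and Atp8a2 3 and 3 with none shared.

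Susd1 encodes a membrane protein with sushi domains. Its sites crowded at the upper end, where this minus-strand gene starts (chromosome 4, 59314202 to 59439869). There, 4 AML sites, all shared, and 5 myeloid sites fell within 10.3 kb. The AML sites lay 3.68 kb inside the upper end and 0.327, 1.65 and 5.87 kb beyond it. Between them, 0.241 kb after the listed start by midpoint, the myeloid list had a site of 1036 bp that the AML list did not have. Inside the gene, further shared sites stood 17.7, 49.0 and 107 kb from the lower end. Of 5 related genes, Susd6 had 1 AML site and 7 myeloid sites, Susd3 had 2 and 2, and the other 3 had 0.

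Rbms1 encodes a protein that binds single-stranded DNA and RNA. It had 5 AML sites, 3 of them shared, and 12 myeloid sites, 9 of them myeloid-only (chromosome 2, 60750193 to 60963880). Its AML sites were 10.6 kb below the gene and 71.6, 128, 134 and 154 kb inside it. The shared site at 134 kb lay 2.78 kb upstream of an internal listed start site, with a myeloid-only neighbour 0.999 kb away. Both fall at a noncoding gene, LOC108168762. No site overlapped either promoter window of Rbms1, whose internal window had 49 CpG. Rbms2 and Rbms3, the other genes of the family, had 0 AML sites and 1 and 2 myeloid sites.

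F13a1 encodes the A subunit of coagulation factor XIII, a transglutaminase made by monocytes and platelets that cross-links fibrin. Its shared sites all lay upstream of the gene (chromosome 13, 36867178 to 37050244), not inside it. They were 6.66, 54.9, 56.0, 70.2, 71.5 and 80.6 kb from the start in the AML list. The myeloid list added sites 57.7 and 72.6 kb upstream, so that the stretch between 54.9 and 80.6 kb held 5 AML and 7 myeloid sites. The next protein-coding gene on that side, Ly86, an immune receptor subunit, begins 295 kb away, and the farthest shared site lay 215 kb from it in the myeloid list. When noncoding genes and pseudogenes were also allowed as the nearest gene, F13a1 held 2 of its 7 AML sites and 3 of its 10 myeloid sites. Inside the 183 kb gene there were 1 AML-only and 2 myeloid-only sites, and neither listed promoter window had a site. Of 8 relatives, Tgm3 had 3 AML sites and 1 myeloid site, Tgm4 2 and Tgm2 1 myeloid site, and the other 5 none.

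Thbs1 encodes thrombospondin 1, a matrix glycoprotein stored in platelets. Within the limit it had 0 AML sites (which allows a mean of up to 3.69 by the Poisson interval) and 2 myeloid-only sites, 98.5 and 99.95 kb below the gene (chromosome 2, 118111876 to 118127133). Just outside the limit the sites continued: the nearest myeloid site lay at 104 kb and the nearest AML site at 116 kb. From 100 to 200 kb there were 8 AML sites, 7 of them shared, and 11 myeloid sites. Of these, 6 AML sites and 8 myeloid sites lay within 35.9 kb, from 150 to 115 kb below the gene. All of these sites fall inside Gm13986, a long noncoding RNA gene from 117857291 to 118111202 that reaches nearly to Thbs1. With noncoding genes allowed as the nearest gene, Thbs1 itself held 0 sites of either list. Thbs1 is nevertheless the nearest protein-coding gene, since Rasgrp1, on the far side, lies 769 kb away. Besides Thbs1, Rbms1 had sites between 100 and 200 kb, 2 myeloid-only ones. Of 6 relatives and receptors, Cd47, a receptor of thrombospondin 1, had 4 AML sites and 7 myeloid sites, Thbs4 2 and 3, and Cd36 2 and 0.

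**Figure D3:**
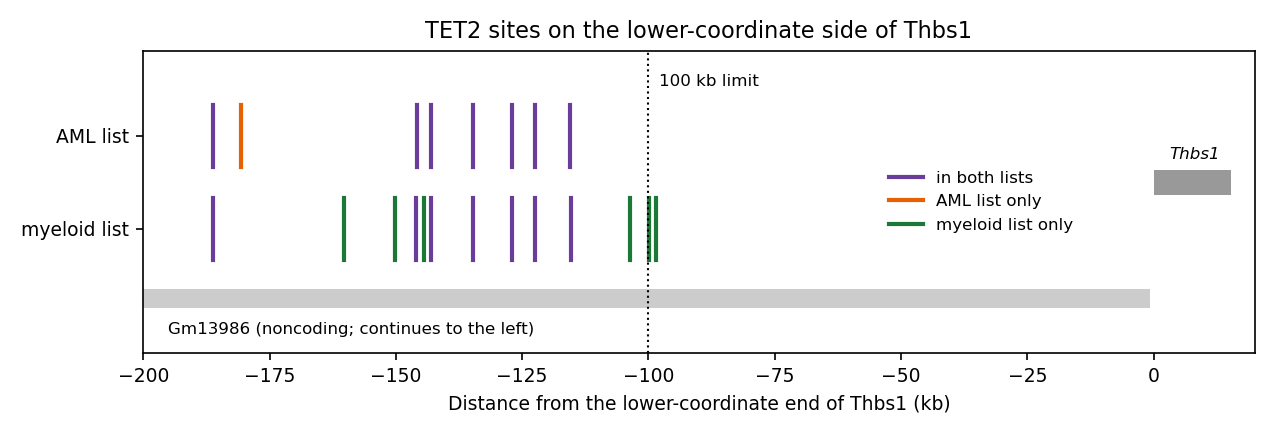
TET2 sites up to 200 kb from the lower-coordinate end of Thbs1 (x axis, kb), AML list above and myeloid list below, with the dotted line at the 100 kb limit and the noncoding gene Gm13986 as the light bar. All 8 AML sites and 11 of the 13 myeloid sites lie beyond the limit.

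Over all members, AML neighbours were a median of 11.2 kb apart (48 distances, from 1.01 to 155 kb) and myeloid neighbours 6.95 kb (86 distances, from 0.760 to 118 kb). Over all genes these medians were 17.5 and 11.7 kb. Neighbours within 2 kb made up 8 of the 48 AML distances (16.7%) and 16 of the 86 myeloid distances (18.6%), against 8.27% and 11.6% over all genes. Dense groups were part of the choice, so these values describe it. When sites of either list with midpoints up to 10 kb apart were joined, the 153 sites fell into 50 groups, of which 24 held a shared site, 18 held myeloid sites alone and 6 AML sites alone. The 6 groups with at least 3 AML sites, at Atp8b4, Susd1, F13a1, Map4k4, Rin3 and Il17ra, held 22 AML sites, and all 22 were shared. Of the other 35 AML sites, 23 were shared. No such count is given for groups over all genes, so this contrast has no background to be set against. With groups joined at 20 kb, 29 of 34 such AML sites were shared, and at 5 kb 10 of 10. The limit of 10 kb and both others were set after the positions were seen.

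**Figure D4:**
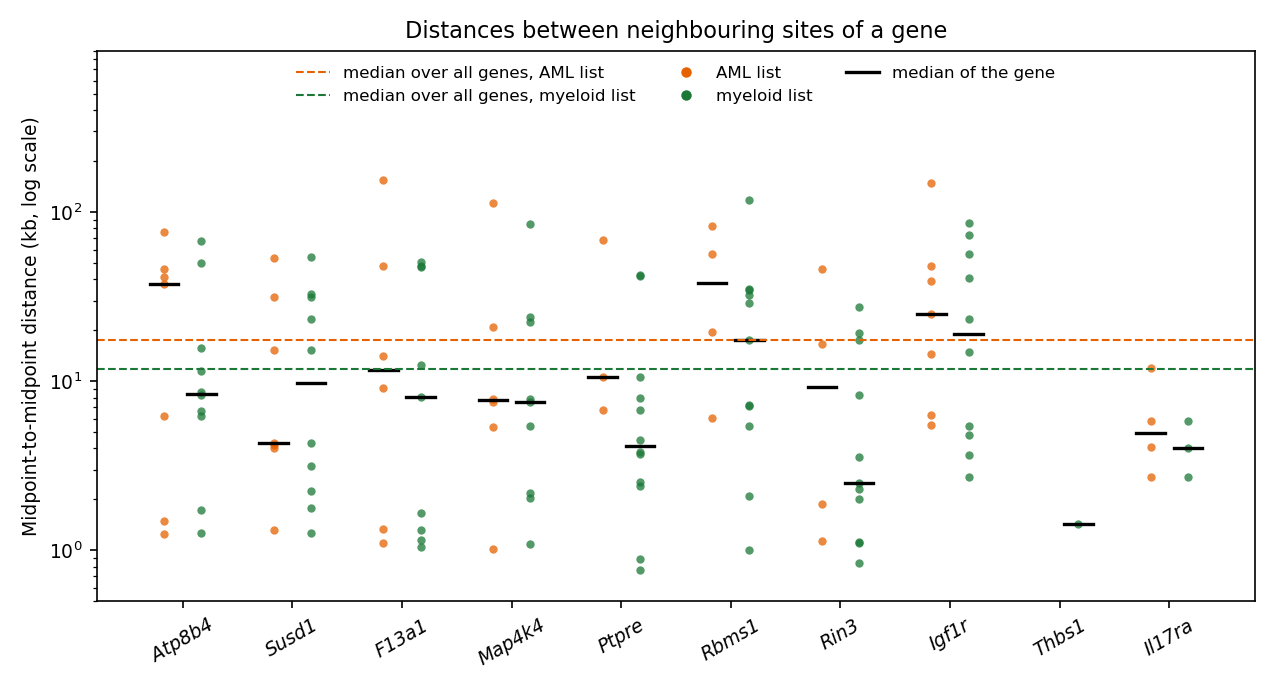
Distance between neighbouring site midpoints (y axis, kb, log scale) for each of the 10 genes (x axis) and list, with the gene's median as a black bar and the medians over all genes as dashed lines. Rin3 (2.49 kb), Il17ra (4.03 kb) and Ptpre (4.16 kb) have low myeloid medians, and both medians of Igf1r lie above both dashed lines. The AML medians of Rbms1 (37.9 kb) and Atp8b4 (37.7 kb) also lie above both. The myeloid median of Rbms1 (17.4 kb) lies between the lines (11.7 and 17.5 kb).

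Shared sites were wider than unshared sites in the myeloid list of these genes. Myeloid sites that were shared spanned 775 bp at the median (quartiles 729 and 823 bp, 45 sites), and myeloid-only sites 686 bp (662.5 and 755.5 bp, 51 sites). Over the whole myeloid list the medians were 758 and 695 bp. In the AML list, shared and AML-only sites of the members had medians of 725 and 724 bp, against 727 and 705 bp over the list. The myeloid site was the wider of the pair in 35 of the 45 shared pairs (77.8%), where it was in 60.8% of all pairs. No width was below 651 bp in the AML list or below 621 bp in the myeloid list. How the peak caller set widths is not stated for either list, and sites of 1 list are not replicates, so no test was made.

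**Figure D5:**
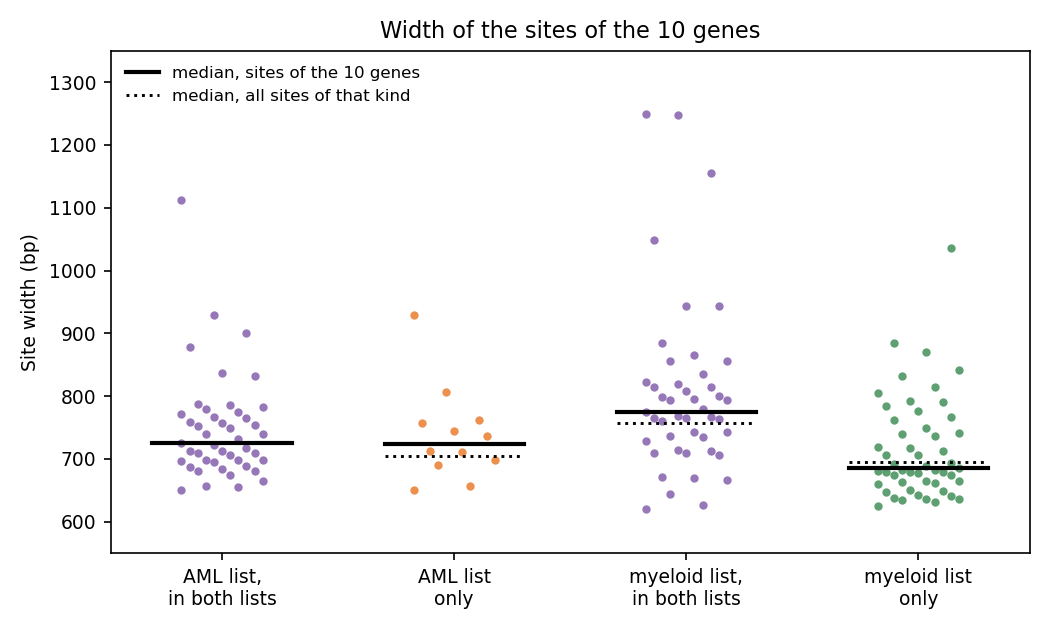
Width in bp (y axis, not starting at 0) of each site of the 10 genes, by list and sharing (x axis), with the members' median as a solid bar and the median over all sites of that kind as a dotted bar. Shared myeloid sites stand highest, with a median of 775 bp against 686 bp for myeloid-only sites.

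Relatives of the members were listed by gene family, and for some members, such as Igf1r, Rin3, Thbs1 and Il17ra, with pathway or partner genes. Of 89 relatives found in the gene table, AML sites were found at 31 (34.8%) and myeloid sites at 47 (52.8%), beside 19.8% and 42.0% of all protein-coding genes. Gene length was not matched in this comparison, and a long gene has more room for sites. No relative had more than 4 AML sites or 8 myeloid sites, and the members, unlike their relatives, were chosen for high counts. Of the 20 protein-coding genes next to the members, those with most were Ly86 beside F13a1 (4 AML sites and 8 myeloid sites), Tank beside Rbms1 (5 and 6) and Ugcg beside Susd1 (3 and 4).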

How the data were processed

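TET2 ChIP-seq was made from 2 cultured mouse cell types. The submitters' processing notes name Trimmomatic, Bowtie2, MACS2 and mm10. Their versions and thresholds, and how replicate, knockout, IgG and input libraries entered the lists, are not stated. The authors deposited 1 list per cell type (7002 AML and 19706 myeloid sites), and per the file headers each row has a chromosome, start and end. Whether starts count from 0 or 1 is not stated, so positions may be off by 1 bp. Sites on chromosomes 1 to 19, X and Y were kept (1 AML site was not), and overlapping sites within a list (1 bp or more) were joined. Genes and promoter sequences came from RefSeq tables of GRCm38.p6, without exons, so exon, intron and UTR are not given. Strand was taken from the promoter table. Intervals are exact Clopper-Pearson or Poisson (scipy 1.17.1, Python 3.11.15) and cover counting error over sites only. Assignment, merging and overlap were tested on simulated data. The members and gene lists were chosen with earlier results of these data known. Named genes are the members, their neighbours, the next 5 genes by the smaller count in the lists, and relatives with a site; a few of these are not reported here. The alternatives varied the limit, the gene set, merging, the overlap and the gene-end distance.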

Additional observations from a re-analysis of the deposited data

How the results depend on the processing

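No paired analysis was possible because the lists carry no library and no replicate number. Sums over the members stayed within 1.5 times of the reported value under all alternatives (49 to 58 AML sites, 65 to 99 myeloid sites), except that sites inside the genes alone gave 35 AML sites. Sharing was 78.9% to 79.3% of AML sites and 46.9% to 48.5% of myeloid sites. With gene ends taken as 5 kb, 12.3% of AML sites and 13.5% of myeloid sites lay at one, which the wider definition itself brings. Within 0.5 kb the shares were 1.75% and 3.13%, the latter down from 6.25%. For single genes, F13a1 had 2 AML and 3 myeloid sites within 20 kb, or with all annotated genes. In the myeloid list Thbs1 had 0 sites within 20 kb, inside the gene or with all annotated genes. Counting sites inside the gene alone gave Map4k4 1 AML and 3 myeloid sites, F13a1 1 and 2, Susd1 5 and 6, and Igf1r 5 AML sites. With AML groups of at least 3 sites, joining at 5 kb left 10 AML sites and joining at 20 kb gave 34. Median widths, spacing (10.4 kb AML and 6.66 kb myeloid without merging) and counts of relatives (29 and 44 within 20 kb) stayed within 1.5 times, except that spacing over the union of both lists was 6.95 kb. The depth of each site is unknown, so a site missing from a list is not shown to be unbound.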
